A study of Mus musculus with 6 samples.

Results

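The clustered protocadherins are 57 of the 31053 genes for which EPR, the number of C-to-U edits per read, was deposited in each of 6 libraries. They were taken as the listed genes that GENCODE mouse release M21 names as protein-coding members of the *Pcdha*, *Pcdhb* or *Pcdhg* cluster, which gave 14 alpha, 22 beta and 21 gamma genes. The symbol *Pcdha11* is borne by 2 of the alpha genes (ENSMUSG00000007440 and ENSMUSG00000102206) in that release. The libraries came from wild-type primary cortical neurons of E18 C57BL/6J embryos that expressed RPL10A-STAMP (3 libraries) or RPL22-STAMP (3 libraries). Both constructs join rAPOBEC1, a deaminase that turns C into U in RNA, to a large-subunit ribosomal protein, with the mouse Rpl10a or Rpl22 reading frame, so that mRNAs are edited where ribosomes bind. They were carried by AAV in a Tet-On design in which a synapsin promoter, active in neurons, drives the transactivator. All cultures received floxuridine against dividing cells, were infected at DIV 6, were given Dox at 1 µg per ml for 48 h and were collected at DIV 14. Libraries without Dox or virus, and the RPS2-STAMP libraries, were not analysed here, so no editing background without the constructs is given. The methods call the replicates biological and the results text calls them technical, so p values measure the spread between these libraries only.

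Protocadherins are cell adhesion proteins of the cadherin superfamily. Each alpha or gamma gene has its own promoter and a large variable first exon, which encodes the extracellular domain, the membrane span and the start of the cytoplasmic part. That exon is spliced to 3 constant exons that all genes of the cluster share and that encode a common cytoplasmic end. Each beta gene is a single exon without a constant part. A neuron switches on a few variable promoters from each cluster, largely by chance, under the control of CTCF, cohesin and promoter methylation. The resulting set of isoforms binds only its like on other membranes and lets a neurite tell itself from its neighbours, which serves dendrite self-avoidance and axon tiling. The C-type genes at the end of the alpha and gamma clusters (*Pcdhac1*, *Pcdhac2*, *Pcdhgc3*, *Pcdhgc4* and *Pcdhgc5*) are chosen less randomly. In a bulk library EPR is an average over the reads of a gene, which come from neurons with different sets of isoforms. Among the cells that hold its mRNA, fewer that translate it cannot be told apart from less editing in each.

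All 57 genes lie on the plus strand of chromosome 18 (GRCm38). The alpha genes run from 36930184, the start of *Pcdha1*, to 37187661, the beta genes from 37264938 to 37524479 and the gamma genes from 37661793 to 37841873. The constant exons of the alpha cluster lie at 37156155 to 37156213 (59 bases), 37159265 to 37159353 (89 bases) and 37184946 to 37187657 (2712 bases, of which 308 are coding). Those of the gamma cluster lie at 37825021 to 37825079 (59 bases), 37833265 to 37833353 (89 bases) and 37839903 to 37841870 (1968 bases, of which 224 are coding). Every one of the 14 alpha genes and every one of the 21 gamma genes was annotated with all 3 constant exons of its cluster, whereas each of the 22 beta genes had 1 exon. The share of a gene's exon bases that at least 1 other listed gene also holds had a median of 53.6% (range 38.0 to 91.4%) over the alpha genes and of 44.6% (27.8 to 66.8%) over the gamma genes. It was 0 for all beta genes but *Pcdhb21* (9.67%) and *Pcdhb22* (6.88%), which overlap each other. The highest share belonged to *Pcdha4*, which lies under the annotated gene *Gm42416*.

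**Figure D1:**
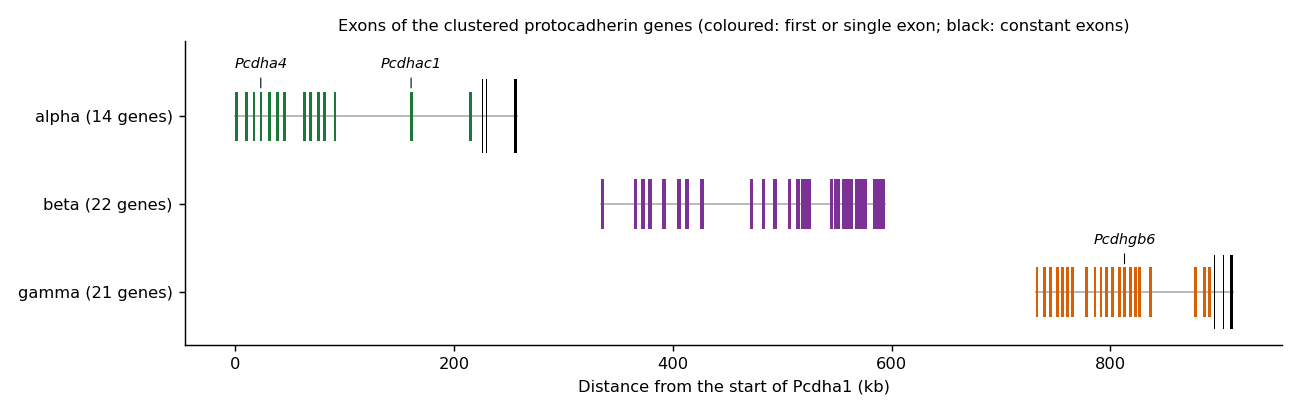
Exons of the 57 clustered protocadherin genes against the distance in kb from the start of *Pcdha1*, with 1 row per cluster. Coloured bars are first or single exons and black bars are constant exons, each drawn at least 1 kb wide. The 14 alpha and the 21 gamma first exons stand before 3 constant exons each, and the 22 beta genes have none.

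This shared structure bears on how EPR can be read. A read that falls in a constant exon belongs to every gene of its cluster, and the sources used here do not give how edits and reads in such exons were assigned to genes. Together with 3 predicted genes (*Gm42416*, *Gm37013* and *Gm37388*) that span the clusters on the same strand, the 35 alpha and gamma genes formed a group of 38 listed genes tied by common exon bases. It was the largest of 13 such groups of at least 5 genes in the files, and the next, the *Ugt1a* genes with 9, held no gene with an EPR above 0. The 3 predicted genes were listed at 0 in all 6 libraries. Some first exons are also hard to tell apart. Each run of 50 bases in a first exon was looked up in the transcripts of the other clustered protocadherins. The share of these runs found there exactly had a median of 14.7% (0 to 23.4%) over the alpha genes. It was 4.26% (0 to 12%) over the beta genes and 0.601% (0 to 39.5%) over the gamma genes. Runs within bases that annotated exons of another member also hold count here too. Values of genes with such runs are therefore uncertain.

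Most clustered protocadherins were edited, here meaning an EPR above 0, but often not in every library. Of the 57 genes, 26 were edited in all 6 libraries (3 alpha, 14 beta and 9 gamma), 30 in some of them and 1, *Pcdhb1*, in none. A value of 0 can mean no edits or no reads, since only the ratios were used here and the depth of each gene is unknown. Zeros made up 33.3% of the 84 values of alpha genes, 15.9% of the 132 values of beta genes and 19.8% of the 126 values of gamma genes. In single libraries 6 to 12 of 14 alpha genes, 17 to 19 of 22 beta genes and 15 to 20 of 21 gamma genes were edited.

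**Figure D2:**
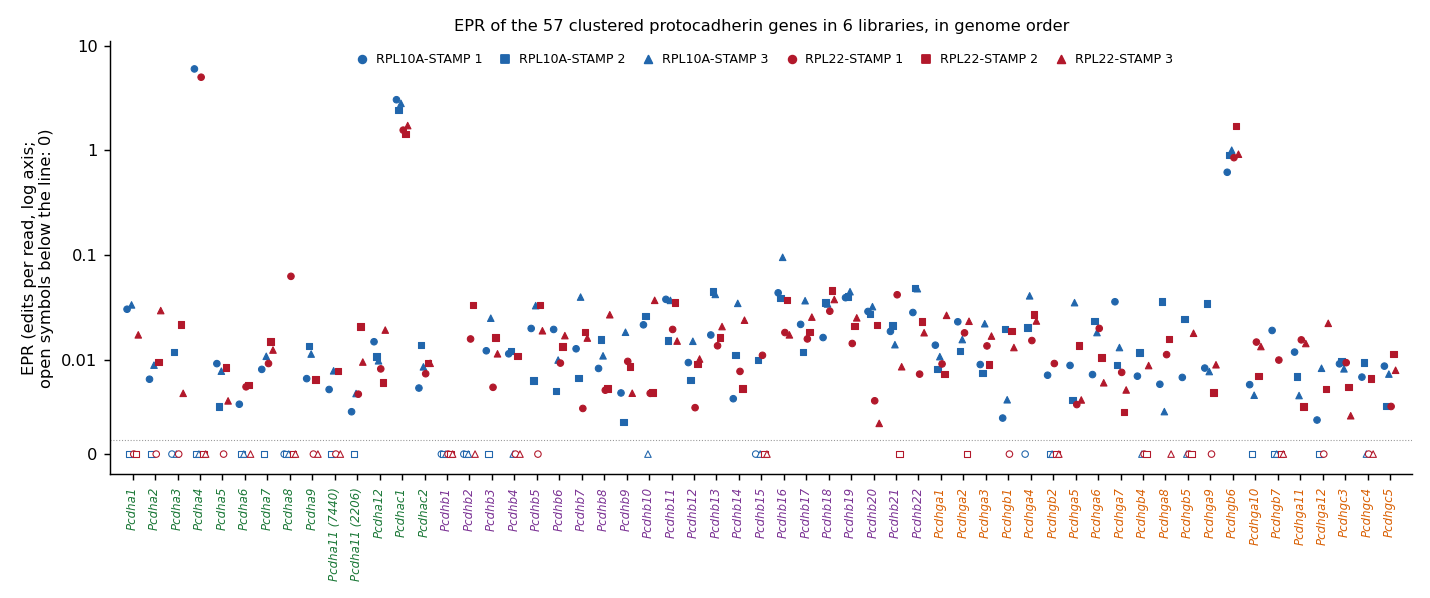
EPR (log axis) of the 57 genes in genome order, with 1 symbol per library, blue for RPL10A-STAMP and red for RPL22-STAMP; open symbols below the dotted line are values of 0, and gene names are green (alpha), purple (beta) or orange (gamma). *Pcdhac1* and *Pcdhgb6* stand above 0.6 in all 6 libraries, *Pcdha4* at 6 and 5 in 2 libraries and at 0 in the other 4, and the rest lie below 0.1.

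The EPR of 3 alpha and gamma genes lay far above that of all other members. *Pcdhac1* (ENSMUSG00000103255, first base at 37090013), a C-type alpha gene, had an EPR of 3.05, 2.44 and 2.81 in RPL10A-STAMP replicates 1, 2 and 3, and of 1.56, 1.44 and 1.72 in RPL22-STAMP replicates 1, 2 and 3. It thus had more edits than counted reads in every library. Its mean over the 6 libraries ranked 45 among all listed genes, its rank in single libraries ran from 32 to 60, and its EPR was 111 to 255 times the median of that library's genes edited throughout. *Pcdhgb6* (ENSMUSG00000103088, first base at 37742094), a gamma gene of the B type, had an EPR of 0.617, 0.905 and 1.00 with RPL10A-STAMP, against 0.851, 1.71 and 0.918 with RPL22-STAMP. It was high in every library and exceeded 1 in 2 of them. Its mean ranked 79 among all listed genes.

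*Pcdha4* (ENSMUSG00000104252, first base at 36952648) differed from both in that its EPR was 6 in RPL10A-STAMP replicate 1 and 5 in RPL22-STAMP replicate 1, and 0 in the other 4 libraries. Its mean, rank 51, therefore rests on 2 libraries, 1 of each variant, and on whole-number values whose reads are not known. *Gm42416* covers 96.3% of its first exon on the same strand, so that few of its bases are its own. For *Pcdhac1*, by contrast, the shared share of exon bases was 52.8%, against a median of 53.6% over the alpha genes, and no run of its first exon recurs in another member. The share of *Pcdhgb6* was 45.2%, against a median of 44.6% over the gamma genes, and 9.98% of its first-exon runs occur in another member. By these measures both genes lay within the range of their cluster.

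These 3 genes made up 80.1 to 93.7% of the EPR summed over the 57 genes of a library. The share was 93.5 and 93.7% in replicate 1 of RPL10A-STAMP and of RPL22-STAMP, where *Pcdha4* was at 6 and 5. In the other libraries, where *Pcdha4* was at 0, it was 80.1 to 83.2%. The highest value of any member outside these 3 was 0.0375 to 0.0950 per library. The other genes with constant exons included none above 0.0625, the single nonzero value of *Pcdha8*, in RPL22-STAMP replicate 1. All genes of a cluster hold the same constant exons, and 3 of the 35 genes that hold them had an EPR of this size. Over the matched genes edited in all 6 libraries, mean EPR was higher where more exon bases were held in common. The median was 0.0133 over the 7716 genes with no shared bases, 0.0161 over the 237 with up to 25%, 0.0275 over the 52 with 25 to 50% and 0.128 over the 37 with more than 50%. A mean EPR above 1 was found for 18, 5, 2 and 11 genes of these classes. Clustered protocadherins lay on both sides of the class medians. The 13 with no shared bases, all beta genes, had a median of 0.0194, and the 1 with up to 25%, *Pcdhb22*, a mean of 0.0288, both above their class. The 10 between 25 and 50% had a median of 0.0119, below it, although *Pcdhgb6* among them had a mean of 1.00. Of the 2 above 50%, *Pcdhac1* had a mean of 2.17, above the class median, and *Pcdha12* a mean of 0.0114, below it. The part of the read assignment in these values was not tested.

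**Figure D3:**
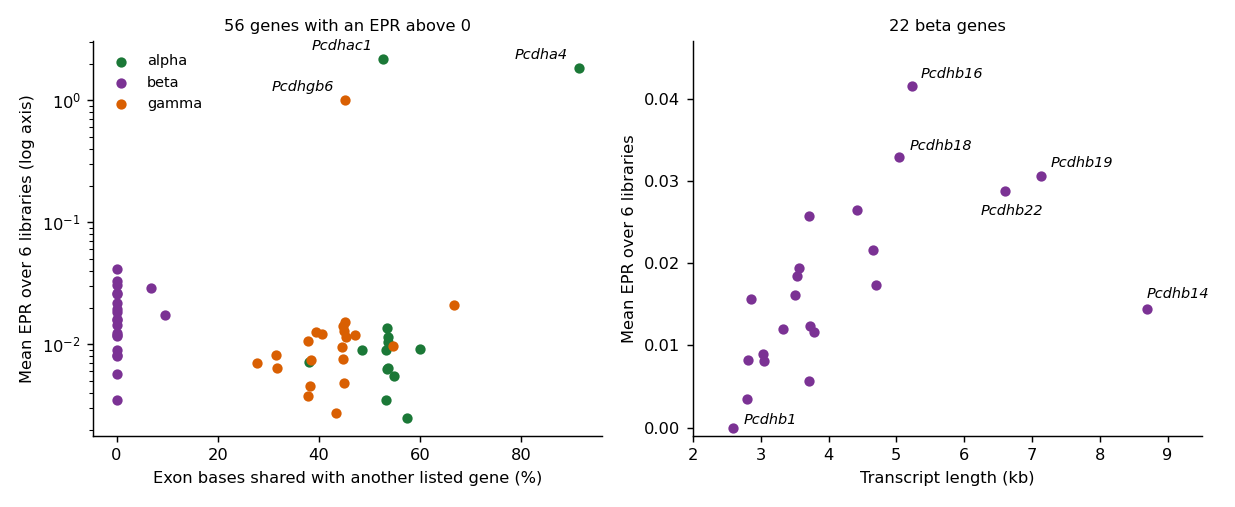
Left, mean EPR over 6 libraries (log axis) against the share of exon bases held by another listed gene, for the 56 genes with an EPR above 0, coloured by cluster. Right, mean EPR of the 22 beta genes against transcript length in kb. *Pcdhac1* and *Pcdhgb6* stand above genes with like shares, *Pcdha4* stands alone at 91.4%, and among the beta genes EPR was higher for longer transcripts, with *Pcdhb14* off this trend.

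The other C-type genes had EPR values far below that of *Pcdhac1*. *Pcdhac2*, which serves the tiling of serotonergic axons, had an EPR of 0.00535, 0.0139 and 0.00852 with RPL10A-STAMP, against 0.00733, 0.00932 and 0.00922 with RPL22-STAMP. It was the lowest of the 3 alpha genes edited in all libraries. *Pcdhgc3*, which promotes dendrite branching through Axin1, had 0.00911, 0.00957 and 0.00816 with RPL10A-STAMP, against 0.00935, 0.00549 and 0.00291 with RPL22-STAMP. *Pcdhgc5* had 0.00866, 0.00362 and 0.00727 with RPL10A-STAMP, against 0.00357, 0.0113 and 0.00791 with RPL22-STAMP. These were the lowest means of the 9 gamma genes edited in all libraries, 0.00743 and 0.00705. *Pcdhgc4*, which cortical interneurons need to survive, was edited in 3 libraries at 0.00658 to 0.00939 and listed at 0 in the other 3. The first exons of all 5 C-type genes have no exact run in another member.

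The remaining alpha genes had low and patchy values. The third highest mean of the cluster belonged to *Pcdha1*, with 0.0303, 0 and 0.0333 with RPL10A-STAMP, against 0, 0 and 0.0172 with RPL22-STAMP. *Pcdha12* followed, the only alpha gene besides the C-type genes edited in all 6 libraries, with 0.0148, 0.0108 and 0.00974 with RPL10A-STAMP, against 0.00815, 0.00604 and 0.0192 with RPL22-STAMP. Its libraries overlapped between the variants. Among the gamma genes, the means next below *Pcdhgb6* were those of *Pcdhga4* (0.0211), *Pcdhga2* (0.0153) and *Pcdhga6* (0.0142). *Pcdhga4* was listed at 0 in RPL10A-STAMP replicate 1 and had 0.0152 to 0.0407 in the other 5 libraries. Of its first-exon runs 39.5% occur in another member, the highest share of all 57. Annotated exons of another listed gene overlap 39.8% of the bases of that exon. *Pcdhga2* was listed at 0 in RPL22-STAMP replicate 2 and ranged from 0.0120 to 0.0233 elsewhere. *Pcdhga6* ranged from 0.00601 to 0.0234. Spreads of this size within a gene exceeded the distance between these means.

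The beta genes, whose reads can be assigned by exon alone except where copies recur, were edited at a level near or above that of the typical gene. Their highest means were those of *Pcdhb16* (0.0416), *Pcdhb18* (0.0329), *Pcdhb19* (0.0307) and *Pcdhb22* (0.0288). *Pcdhb9* (0.00809) and *Pcdhb12* (0.00891) had the lowest means of the 14 edited in all libraries. No beta gene reached 0.1 in any library. The 7 genes at the end of the cluster, *Pcdhb16* to *Pcdhb22*, were grouped after their values were seen and get no test. Their median EPR was 0.0282, 0.0349 and 0.0366 with RPL10A-STAMP, against 0.0158, 0.0214 and 0.0181 with RPL22-STAMP. Over the 15 genes *Pcdhb1* to *Pcdhb15*, with zeros included, it was 0.0114, 0.00669 and 0.0150 with RPL10A-STAMP, against 0.00543, 0.0109 and 0.0150 with RPL22-STAMP. The end of the cluster was higher in each of the 6 libraries.

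The beta genes at the end of the cluster also had longer transcripts (median 5041 against 3501 bases) with less GC (median 43.0 against 47.5%). Over the 22 beta genes, mean EPR had a Spearman correlation of 0.72 with transcript length and of -0.70 with GC content. The points share libraries, sequence runs and, for neighbours, position, and length and GC move together, so these are descriptions. *Pcdhb14*, with 8695 bases the longest and with 39.1% GC the poorest in GC, had a mean EPR of only 0.0144. Over the 8039 genes edited in all 6 libraries with an annotated sequence, the same correlations were 0.14 and -0.21. The clusters did not share 1 pattern. Over the 21 gamma genes the correlation with GC was -0.45 and that with length -0.04, and over the 20 without *Pcdhgb6* -0.60 and 0.02. Over the 14 alpha genes the correlation with GC had the other sign, 0.18, and that with length was 0.07, and over the 12 without *Pcdhac1* and *Pcdha4* these were 0.68 and -0.30. Gamma transcripts held more GC than beta transcripts, with medians of 53.1 and 46.0%.

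The contrast between genes with constant exons and single-exon genes was then taken per library as a median over the edited genes of each kind. For the beta genes it was 0.0186, 0.0152 and 0.0340 with RPL10A-STAMP, against 0.00962, 0.0183 and 0.0177 with RPL22-STAMP. For the alpha genes it was 0.00732, 0.0126 and 0.00929 with RPL10A-STAMP, against 0.00866, 0.00932 and 0.0123 with RPL22-STAMP. The gamma genes had 0.00848, 0.0116 and 0.00947 with RPL10A-STAMP, against 0.0112, 0.00811 and 0.0133 with RPL22-STAMP. The beta median was above the median of all edited genes in all 6 libraries (0.0118, 0.0148, 0.0154, 0.00907, 0.0125 and 0.0114 in the same order). The alpha and gamma medians were below it in each RPL10A-STAMP library, and in RPL22-STAMP replicate 3 both were above it.

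The median over alpha and gamma genes together differed from the beta median by -0.00867 ± 0.00880 (mean and SD over 6 libraries) and was the lower of the pair in 5 of 6 libraries. The difference was -0.0104, -0.00339 and -0.0247 with RPL10A-STAMP, against 0.000286, -0.00931 and -0.00447 with RPL22-STAMP. It was thus largest in RPL10A-STAMP replicate 3, and without that library the mean difference was -0.00546. The SD was as large as the difference, and genes are not replicates, so no test was made. A mean over genes instead of a median turned the difference to 0.179, positive in all 6 libraries, and it was -0.00850, negative in 5 of 6, when *Pcdhac1*, *Pcdhgb6* and *Pcdha4* were left out. Without *Pcdhb14* and the beta genes from *Pcdhb16* on, among them the longest ones, the difference of the medians was -0.00445, negative in 4 of 6 libraries. The genes left out here also had the highest beta means, with *Pcdhb16* (0.0416) first, so a smaller difference says nothing on length. Transcript length and GC content differ between the kinds of gene, and their part in the difference was not tested.

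**Figure D4:**
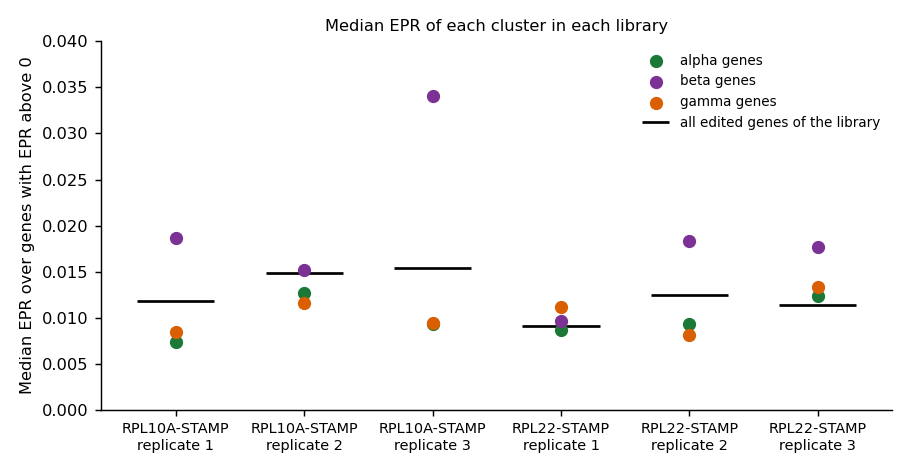
Median EPR over the edited alpha, beta and gamma genes (points) and over all edited genes (black bars) in each of the 6 libraries. The beta median is the highest of the 3 clusters in 5 libraries; in RPL22-STAMP replicate 1 the gamma median, 0.0112, is above the beta median, 0.00962.

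The comparison of RPL10A-STAMP with RPL22-STAMP asks whether the construct changes which mRNAs are edited. Per the methods, Rpl10a was joined to the C terminus of the deaminase and Rpl22 to its N terminus. Effects of the ribosomal protein and of the side of the fusion therefore cannot be told apart. It was made with limma on log2(EPR + 0.01), with the 8046 genes edited in all 6 libraries and after scaling each library to its median gene, and fold changes on this scale understate those of genes with low EPR. None of the 26 clustered protocadherins that entered the test passed an adjusted p of 0.05 in limma, where 14.3% of all genes tested did (8.51% with RPL10A-STAMP higher and 5.77% with RPL22-STAMP higher). At an unadjusted p under 0.05, limma gave 6 of the 26, against 30.9% of all genes tested. The adjusted p values of the 26 ran from 0.0512 to 0.992. A positive log2 fold change means higher EPR with RPL10A-STAMP. The median over the 26 was -0.04, against -0.01 over all genes tested, with medians of -0.11 over 3 alpha, 0.02 over 14 beta and -0.20 over 9 gamma genes. A missed threshold does not show that EPR was equal, and the intervals were wide for most genes.

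Beta genes of the last part of the cluster came nearest to the threshold, and not all in 1 direction. *Pcdhb18* had an EPR of 0.0162, 0.0349 and 0.0340 with RPL10A-STAMP, against 0.0290, 0.0458 and 0.0375 with RPL22-STAMP. Its libraries overlapped in deposited EPR but not after scaling, and its log2 fold change was -0.63 (SE 0.17, limma adjusted p = 0.0512). *Pcdhb22* had 0.0282, 0.0483 and 0.0476 with RPL10A-STAMP, against 0.00726, 0.0231 and 0.0181 with RPL22-STAMP. Each RPL10A-STAMP library was above each RPL22-STAMP library, with a log2 fold change of 0.74 (SE 0.21, limma adjusted p = 0.0606). *Pcdhb19* had 0.0391, 0.0400 and 0.0446 with RPL10A-STAMP, against 0.0143, 0.0209 and 0.0251 with RPL22-STAMP. These did not overlap either, and the log2 fold change was 0.50 (SE 0.16, limma adjusted p = 0.0760). Neighbouring genes of one cluster thus had fold changes of opposite sign.

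*Pcdhb20* had 0.0288, 0.0273 and 0.0321 with RPL10A-STAMP, against 0.00404, 0.0214 and 0.00246 with RPL22-STAMP. Its value of 0.0214 in RPL22-STAMP replicate 2 stood near the RPL10A-STAMP libraries. The log2 fold change was 0.96 (SE 0.32, limma adjusted p = 0.0894), and without that library it was called (limma adjusted p = 0.0156). *Pcdhb16* had 0.0435, 0.0389 and 0.0950 with RPL10A-STAMP, against 0.0181, 0.0369 and 0.0172 with RPL22-STAMP. RPL10A-STAMP replicate 3 was far above the other libraries, and the log2 fold change was 0.68 (SE 0.29, limma adjusted p = 0.155). Without scaling *Pcdhb19* and *Pcdhb20* passed the threshold (limma adjusted p = 0.0419 and 0.0471), with a pseudocount of 0.1 *Pcdhb18* and *Pcdhb22* did (0.0387 and 0.0472), and with the trend with GC content removed *Pcdhb18* did (0.0191). Other values shrank under the same settings. Without scaling the log2 fold change of *Pcdhb18* was -0.33 (limma adjusted p = 0.454), and with the GC trend removed that of *Pcdhb19* was 0.17 and that of *Pcdhb16* 0.42 (limma adjusted p = 0.555 and 0.380). Without RPL10A-STAMP replicate 3 *Pcdhb16* had 0.41.

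The genes with extreme EPR showed no call either. *Pcdhac1* was higher in every RPL10A-STAMP library than in any RPL22-STAMP library, with means of 2.76 ± 0.308 and 1.57 ± 0.144 (SD, n = 3 each; p = 0.10 in a two-sided exact permutation test, the lowest value possible with 3 libraries a side). After scaling its libraries overlapped, at 255, 159 and 174 times the library's median gene with RPL10A-STAMP, against 172, 111 and 153 with RPL22-STAMP. Its log2 fold change was 0.42 (SE 0.33, 95% interval -0.36 to 1.20, limma adjusted p = 0.432). It was 0.81 without scaling, 0.22 without RPL10A-STAMP replicate 1 and 0.24 without RPL22-STAMP replicate 2, none of them called. *Pcdhgb6* had means of 0.842 ± 0.201 and 1.16 ± 0.477 in deposited EPR (SD, n = 3 each, p = 0.50 in a two-sided exact permutation test), where its libraries overlapped. After scaling they did not, at 51.6, 59.3 and 62.2 times the library's median gene with RPL10A-STAMP, against 93.9, 132 and 81.7 with RPL22-STAMP. The log2 fold change of *Pcdhgb6* was -0.80 (SE 0.26, limma adjusted p = 0.0904), or -0.41 without scaling (limma adjusted p = 0.547). The 2 high genes thus had fold changes of opposite sign. The other C-type genes tested were close to 0, with -0.16 for *Pcdhac2*, 0.10 for *Pcdhgc3* and -0.20 for *Pcdhgc5* (limma adjusted p = 0.511, 0.797 and 0.518).

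In deposited EPR, without scaling, the values of the 2 constructs did not overlap for 6 of the 26 genes, against 34.4% of all genes tested. RPL10A-STAMP was higher for all 6 (*Pcdhac1*, *Pcdhb16*, *Pcdhb19*, *Pcdhb20*, *Pcdhb22* and *Pcdhga7*), a direction that 28.2% of all genes tested showed. RPL22-STAMP was higher for none of the 26, against 6.21% of all genes tested. The direction of the 6 genes was thus the commoner one over all genes as well.

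**Figure D5:**
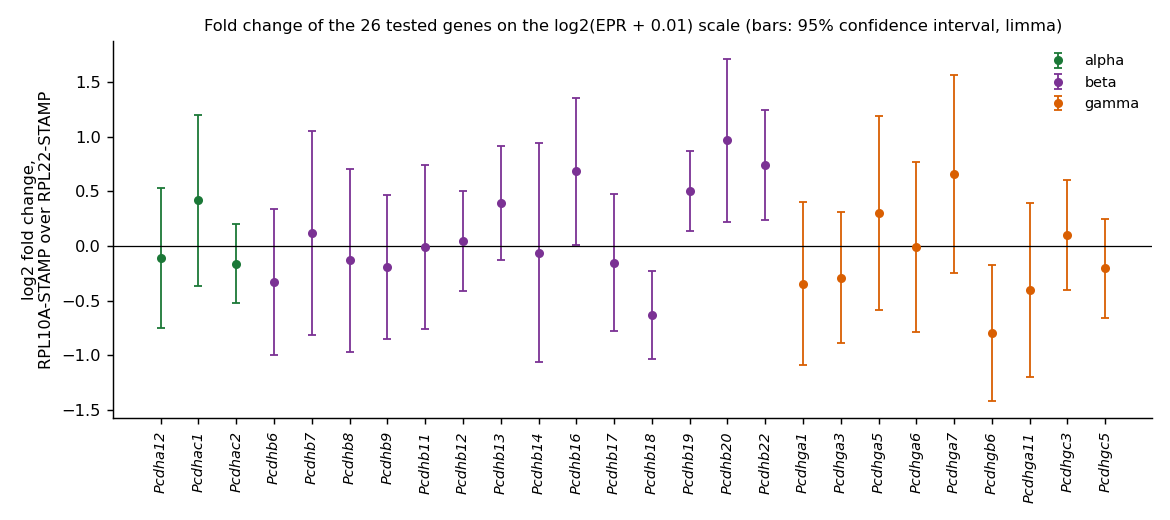
Log2 fold change (positive: RPL10A-STAMP higher) on the log2(EPR + 0.01) scale for the 26 tested clustered protocadherins, with 95% confidence intervals from limma that are not adjusted for the number of genes. *Pcdhb18* and *Pcdhgb6* lie below 0 and *Pcdhb16*, *Pcdhb19*, *Pcdhb20* and *Pcdhb22* above it with intervals that leave out 0; none passed the adjusted threshold.

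Genes that act on or with the clusters were read from the same fit. Of 16 genes for promoter choice and chromatin, 15 were tested and 6 were called, all with RPL10A-STAMP higher, a call that 8.51% of all genes tested had (14.3% in either direction). The median log2 fold change of the list was 0.46, against -0.01 over all genes tested. *Nipbl*, which loads cohesin onto DNA, had an EPR of 0.0575, 0.0671 and 0.10 with RPL10A-STAMP, against 0.00788, 0.00414 and 0.00528 with RPL22-STAMP, and a log2 fold change of 2.14 (SE 0.20, limma adjusted p = 0.00444). The cohesin subunits *Stag2* (0.93, adjusted p = 0.00531) and *Stag1* (1.02, adjusted p = 0.0248), the cohesin regulators *Pds5a* (0.78, adjusted p = 0.0380) and *Pds5b* (0.62, adjusted p = 0.0189), and *Smchd1* (0.93, adjusted p = 0.0185), which silences the clusters, were also higher with RPL10A-STAMP in limma. The other cohesin genes of the list were tested and not called. Their log2 fold changes were 0.06 for *Rad21*, 0.03 for *Smc3*, -0.11 for *Smc1a*, -0.14 for *Mau2* and 0.46 for *Wapl* (limma adjusted p = 0.767, 0.862, 0.592, 0.716 and 0.194). *Ctcf* itself, which brings promoter and enhancer together, had 0.26 (limma adjusted p = 0.280), and *Dnmt3b*, which methylates the promoters, was listed at 0 in all 6 libraries. The GC content of the 6 called genes was 38.1 to 43.2%. With the trend with GC content removed, the log2 fold changes of all 6 were smaller. *Nipbl* (1.86) and *Stag2* (0.48) stayed under the threshold (limma adjusted p = 0.00863 and 0.0469), and *Stag1* (0.72), *Smchd1* (0.64), *Pds5a* (0.53) and *Pds5b* (0.27) did not (0.0853, 0.0665, 0.132 and 0.220). With a replicate block added to this fit, *Nipbl* stayed under it and *Stag2* did not (limma adjusted p = 0.0442 and 0.112). When an edit in any 3 libraries sufficed for the test, *Stag1* and *Pds5a* lost the call (limma adjusted p = 0.0541 and 0.0729), and when an edit in any 1 sufficed *Smchd1* did too (0.0554). *Nipbl* and *Stag2* also stayed under it without any 1 library. *Smchd1* did not without RPL10A-STAMP replicate 2 or 3 or RPL22-STAMP replicate 3 (limma adjusted p = 0.0635, 0.0640 and 0.0596). *Stag1* was called only without RPL10A-STAMP replicate 3 or RPL22-STAMP replicate 2 (limma adjusted p up to 0.0774 without the others), *Pds5a* only without RPL22-STAMP replicate 2 (up to 0.105) and *Pds5b* only without RPL22-STAMP replicate 1 (up to 0.0688).

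Of 12 protocadherins outside the clusters, 8 were tested and 2 were called with RPL10A-STAMP higher, with a median log2 fold change of 0.32, beside 8.51% of all genes tested, and *Pcdh12* and *Pcdh18* were listed at 0 in all 6 libraries. *Pcdh7* had an EPR of 0.0338, 0.0435 and 0.0459 with RPL10A-STAMP, against 0.0113, 0.0168 and 0.0177 with RPL22-STAMP, and a log2 fold change of 0.74 (SE 0.13, limma adjusted p = 0.0133). *Pcdh15*, which forms the tip links of hair cells, had 0.00730, 0.0177 and 0.0235 against 0.00274, 0.00271 and 0.00288, and a log2 fold change of 0.80 (SE 0.19, limma adjusted p = 0.0324). *Pcdh7* lost the call without RPL10A-STAMP replicate 2 or 3 (limma adjusted p = 0.0521 and 0.0577), and *Pcdh15* without any 1 library other than RPL10A-STAMP replicate 1 (0.0638 to 0.0958). With the GC trend removed *Pcdh7* stayed called at 0.61, though not with the replicate block as well, and *Pcdh15* did not at 0.72 (limma adjusted p = 0.0352, 0.0892 and 0.0572). *Pcdh15* also lost the call when an edit in any 3 libraries or any 1 library sufficed for the test (limma adjusted p = 0.0710 and 0.0997). Mean EPR over 6 libraries in this list reached 0.0385 (*Pcdh9*), so none came near *Pcdhac1* or *Pcdhgb6*. None of the 12 shares exon bases with another listed gene.

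Of 18 partners and signalling genes, 15 were tested and 2 were called, with a median log2 fold change of 0.11. Both belong to the WAVE complex, which drives actin branching and binds the tails of some protocadherins. *Nckap1* had a log2 fold change of 0.60 (limma adjusted p = 0.0231) and *Abi1* of 0.53 (limma adjusted p = 0.0472), with RPL10A-STAMP higher. The other genes of this complex on the list were not called, and not all had the same sign. Their log2 fold changes were 0.40 for *Abi2*, 0.48 for *Cyfip1*, 0.18 for *Cyfip2* and -0.37 for *Wasf1* (limma adjusted p = 0.0796, 0.156, 0.431 and 0.114). *Nckap1* stayed called only without RPL22-STAMP replicate 1 (limma adjusted p up to 0.0871 without the others), and *Abi1* lost the call whichever library was left out (0.0679 to 0.147). With the GC trend removed both lost it, with log2 fold changes of 0.47 for *Nckap1* and 0.18 for *Abi1* (limma adjusted p = 0.0623 and 0.472). *Abi1* also lost it when an edit in any 3 libraries sufficed for the test and with a pseudocount of 0.1 (limma adjusted p = 0.0786 and 0.0556), and *Nckap1* when an edit in any 1 library sufficed (0.0549). *Ptk2* and *Ptk2b*, kinases that protocadherin tails bind, had log2 fold changes of 0.38 and -0.37 (limma adjusted p = 0.0930 and 0.113). Shares of called genes in lists of this size rest on few genes, beside 14.3% of all genes tested.

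The labelled cell type was read from marker genes fixed for this work. All 10 neuron markers were edited in all 6 libraries, with a summed EPR of 0.216 to 0.256 with RPL10A-STAMP, against 0.223 to 0.291 with RPL22-STAMP. Of 5 astrocyte markers 4 were edited in all 6, with a summed EPR of 0.140 to 0.238 and 0.109 to 0.197. Of 5 oligodendrocyte lineage markers 1 was, with sums of 0.00358 to 0.0886 and 0.0352 to 0.0762, and 1 was listed at 0 throughout. Of 5 microglia markers none was, with sums of 0 to 0.0143 and 0 to 0.0364, and 4 were listed at 0 throughout. Of the 10 neuron markers, 3 were called with RPL22-STAMP higher, beside 5.77% of all genes tested, and none of the markers of the other cell types was called. EPR is not an RNA level, so these sums do not measure cell numbers, and the part of other cells in the values of the clustered protocadherins was not tested.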

How the data were processed

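Bulk RNA-seq was made with a stranded mRNA kit for 6 samples. Per the methods, the authors used cutadapt 1.18 for trimming, STAR 2.5.2b for alignment to mm10 (a read could map to 10 places), SAILOR for C-to-U edits and featureCounts 1.5.3 for reads, and deposited EPR, the ratio of the edits to the reads of a gene, for 31053 Ensembl genes. Their gene annotation, and the assignment of reads in exons shared between genes, are not given in the sources used here. Genes that respond to Dox, which the authors removed downstream, were kept.

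Of the identifiers, 31011 were found in GENCODE M21, which gave symbols, exons, transcript length and GC content of the transcript with the longest coding sequence. Depth per gene is unknown, so no counting interval was given. For scaling, the median EPR of the 8046 genes edited throughout was brought to the same value, the geometric mean of the 6 medians, in every library. log2(EPR + 0.01) was fitted with limma 3.58.1 (R 4.3.3, variance trend) and adjusted by Benjamini-Hochberg over all genes tested (threshold 0.05), after the script was tested on simulated data. Single values were compared with an exact permutation test over 20 labelings.

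The clustered protocadherins, the lists and the tests were chosen with earlier results of these data known. Genes named are the 5 C-type genes, clustered protocadherins past the threshold or with EPR above 1 in any library, per cluster the 4 highest means and the 2 lowest among genes edited in all 6 libraries, and called genes of the lists. Others named (*Pcdhb14*, *Pcdhb20*, *Pcdhb21*, *Pcdhb1*, *Pcdha8*, *Pcdhga7*, *Ctcf*, *Dnmt3b*, *Rad21*, *Smc3*, *Smc1a*, *Mau2*, *Wapl*, *Ptk2*, *Ptk2b*, *Abi2*, *Cyfip1*, *Cyfip2*, *Wasf1*, *Pcdh9*, *Pcdh12*, *Pcdh18* and the overlapping genes) were picked with their values in view. The settings varied were the scaling, the filter, the pseudocount, GC content (natural spline, 4 degrees of freedom), the replicate number as a block, the way levels were averaged and each library left out. Tables and plots were made in Python 3.11.15 with pandas 2.3.3, numpy 2.4.6, matplotlib 3.10.9 and scipy 1.17.1.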

Additional observations from a re-analysis of the deposited data

How the results depend on the processing

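The number of clustered protocadherins called was 0 in the reported comparison and stayed 0 when an edit in any 3 libraries (50 tested) or any 1 library (56 tested) sufficed, a pseudocount of 0.001, and the replicate number as a block with or without the GC trend removed. It was 2 without scaling, 2 with a pseudocount of 0.1, 1 with the GC trend removed, and 0 to 1 with each library left out in turn. Over all genes, 1149 calls became 754 with edits in any 3 libraries, 569 with edits in any 1, 603 with the replicate block, 663 with the GC trend removed, 227 with both, and 369 to 873 with each library left out. Without scaling, 88.1% of 1085 calls had RPL10A-STAMP higher, against 59.6% with scaling, as the median log2 fold change moved to 0.18.

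Same-numbered libraries of the variants had correlations of their deviations, taken after scaling, of 0.044, 0.046 and -0.0055. These values show little pairing by replicate number. Scaling removes effects common to all genes of a library. Before it, replicate 1 had the lowest median over all edited genes within each variant (0.0118 with RPL10A-STAMP and 0.00907 with RPL22-STAMP). *Pcdha4* was above 0 in replicate 1 of each variant only. Whether same-numbered libraries share cultures was not tested. The replicate block changed no call of a clustered protocadherin; it took the call from *Abi1*, *Nckap1*, *Pcdh15*, *Pds5a* and *Pds5b* (limma adjusted p = 0.0963, 0.0683, 0.0678, 0.0866 and 0.0607).

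The difference between alpha with gamma and beta genes reversed to 0.179 with a mean over genes, and ranged from -0.0105 to -0.00546 with each library left out. Both alternatives that leave out named genes were chosen after seeing the data. Among genes without a call, the log2 fold change turned sign without scaling for *Pcdha12* (0.087), *Pcdhac2* (0.025) and *Pcdhga6* (0.24), with a pseudocount of 0.001 for *Pcdhga6* (0.030), and with the GC trend removed, with or without the block, for *Pcdhga6* (0.092) and *Pcdhgc5* (0.030). With single libraries left out it ranged from -0.34 to 0.15 for *Pcdha12*, -0.10 to 0.19 for *Pcdhb12*, -0.46 to 0.028 for *Pcdhb9*, -0.25 to 0.34 for *Pcdhga6* and -0.070 to 0.34 for *Pcdhgc3*. The cause was not tested in these cases. Depth limits all of this, since an EPR of a gene with few reads moves with single edits.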
